A study of Mus musculus with 6 samples.

Results

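The interferon and inflammation genes examined here were a fixed list of 33 genes, chosen by name: the sensors, transcription factors and induced genes of the interferon response, the genes of antigen presentation, and cytokines and acute-phase genes of inflammation. Of these 33 genes, 27 had a probeset that the array annotation gives to a single gene, and all 27 were tested among 16663 genes. Isg15 and Gbp2 were read only by probesets shared with another gene and were not tested. Mx1, Ifi44, Nfkb1 and C3 had no probeset under their symbol in the annotation used, so their signal was not analysed here.

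The arrays were Affymetrix Mouse Gene 1.0 ST arrays of hypothalamus from female C57Bl/6J mice. The CGP group (3 arrays) were offspring of mothers given CGP 39551, an antagonist of the NMDA-type glutamate receptor, at 5 mg/kg by mouth through pregnancy until weaning. The CON group (3 arrays) were offspring of mothers without the compound. RNA of 18 offspring was pooled per group at 21 weeks of age. For male mice of the same scheme, the paper describes RNA of all 18 mice of a group, pooled and run on 3 arrays. The labels of these female arrays do not state whether a group's arrays hold separate pools. The p-values therefore cover the array-to-array spread alone, which is technical if these arrays were made in the same way, and not the spread between mice.

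Interferons are secreted proteins that warn cells of viruses. Sensors of foreign RNA inside the cell switch on interferon genes, the interferons act on receptors that signal through JAK kinases and STAT proteins, and a factor that holds Stat2 and Irf9 binds the interferon-stimulated response element (ISRE) in front of many antiviral genes. In the brain, microglia, astrocytes, endothelial cells and neurons can all respond to interferon, and reactive astrocytes release proteins such as Lcn2 and Serpina3n during inflammation.

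No interferon or inflammation gene passed the test for a difference between CGP and CON hypothalami. At an adjusted p under 0.05 (limma, Benjamini-Hochberg over all 18239 tested probesets), 0 of the 27 genes were called, where 0.154% of all tested probesets were called higher in CGP and 0.126% lower. Adjusted p-values ran between 0.206 and 0.997, and the largest difference was 1.19-fold. Of the genes read above background, Serpina3n, Lcn2 and B2m lay lower on all 3 CGP arrays than on all 3 CON arrays, by 0.13 to 0.15 on the log2 scale, and Irf1 lay higher on all 3 CGP arrays. Background is the level of the receptor probesets given below. Of the 13116 tested probesets that exceeded it, 1601 (12.2%) had all CGP arrays below all CON arrays and 998 had them above. Over the whole array, 9.95% of tested probesets lay below in this way and 7.59% above. Signals are given throughout as log2 values, on which 1 unit is a doubling, and differences are CGP minus CON.

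The promoters show how many of these genes carry the element through which interferon acts. Mouse RefSeq promoter windows (GRCm38.p6), which reach 250 bases before to 50 after the start of a gene, matched 26 of the 33 genes. The ISRE was searched as GAAANNGAAA on both strands, on which it reads TTTCNNTTTC in the other direction, and neighbouring matches may overlap. It was found in 10 of the 26 genes (38.5%), in 34.5% of their 29 windows against 3.44% of all 32851 windows. The gamma-activated site, the element of the interferon-gamma pathway, was searched as TTCNNNGAA and was found in 6 genes, in 20.7% of their windows against 8.30% of all windows. A match is a run of letters and not a bound site. The stretches below were chosen because they come from antiviral genes, from B2m, which separated the groups, and from the factor of the gamma pathway. Each is 80 bases upstream of the start, 5′ to 3′ on the strand of the gene, with the matches in capitals.
Ifit1: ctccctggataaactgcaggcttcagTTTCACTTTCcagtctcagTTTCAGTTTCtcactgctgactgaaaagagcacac
Ifit3: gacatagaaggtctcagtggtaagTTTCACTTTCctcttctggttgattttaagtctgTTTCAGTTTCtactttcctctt
Oas1a: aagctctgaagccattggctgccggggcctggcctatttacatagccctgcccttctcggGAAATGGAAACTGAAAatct
Rsad2: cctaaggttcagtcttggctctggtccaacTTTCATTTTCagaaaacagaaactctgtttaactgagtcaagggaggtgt
Isg15: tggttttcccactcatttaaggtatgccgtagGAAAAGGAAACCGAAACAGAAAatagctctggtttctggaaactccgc
B2m: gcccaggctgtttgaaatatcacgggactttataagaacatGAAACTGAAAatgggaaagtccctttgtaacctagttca
Irf1: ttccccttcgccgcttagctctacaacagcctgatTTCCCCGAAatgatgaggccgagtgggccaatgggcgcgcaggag

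The stretch of Ifit1 lies at chr19:34640759-34640838 on the plus strand and that of its neighbour Ifit3 at chr19:34583349-34583428 on the plus strand, and each holds 2 separate ISRE matches. Oas1a (chr5:120907526-120907605, minus strand) holds 2 overlapping matches, and Isg15 (chr4:156200849-156200928, minus strand) holds 3 overlapping matches. Rsad2 (chr12:26456523-26456602, minus strand) and B2m (chr2:122147507-122147586, plus strand) hold 1 ISRE match each. The match of Irf1 (chr11:53769889-53769968, plus strand) is a gamma-activated site.

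Of the 10 genes with an ISRE match, 8 were tested, with the signal higher in CGP for 3 and lower for 5. Their median difference was -0.06, none was called, and their differences lay between -0.13 and 0.09. The 14 tested genes with a promoter window and no ISRE match had a median difference of -0.01. Over the whole array, 450 tested genes had an ISRE match. Their median difference was -0.00313, beside -0.00273 over all 13088 tested genes with a promoter window, and 1 of the 450 was called, Igf2 (difference -0.25, adjusted p = 0.0467 by limma), a growth factor that is also a marker of meninges.

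Many of the genes were read at levels that genes silent in brain also reach. Olfactory and vomeronasal receptors, which belong to sensory neurons of the nose, served as a measure of such signal, and their 291 probesets had a median of 6.35 and a 95th percentile of 7.50. Of the 27 interferon and inflammation genes, 16 lay at or below that 95th percentile and 11 above it. Those above were Ifit1, Ifit3, Irf1, Irf9, Stat2, Tap1, Psmb9, Bst2, Lcn2, Serpina3n and B2m. For the other 16 a true difference in RNA could be larger than the difference in signal, since background adds to both groups. Background here means the range of the receptor probesets. A second measure lay lower: the 3 measured Y-linked genes, silent in female brain, were read at 4.31 to 5.62. Every signal of the 27 genes exceeded that second range, the lowest being 5.99.

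**Figure D1:**
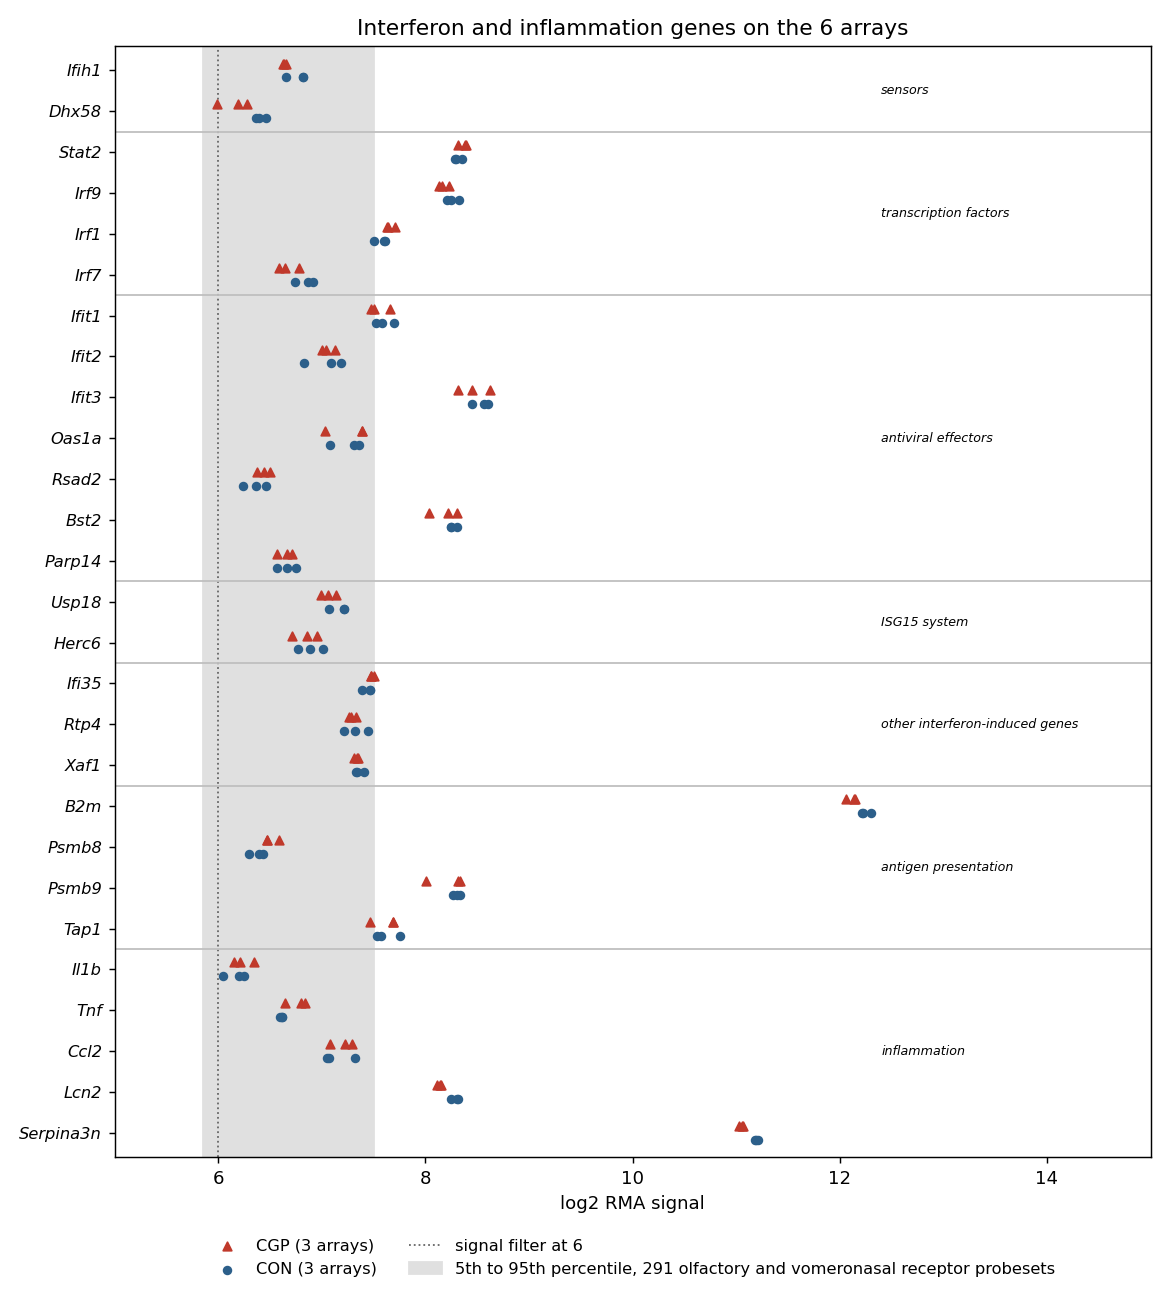
Log2 signal of each tested interferon and inflammation gene on the 3 CGP and the 3 CON arrays, with the 5th to 95th percentile of olfactory and vomeronasal receptor probesets shaded and the signal filter of 6 dotted. B2m and Serpina3n stand above 11 in both groups, and 16 of the 27 genes lie at or below the receptors' 95th percentile of 7.50.

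The 2 sensors were dim. Dhx58 encodes LGP2, a helicase that tunes sensing of foreign RNA, and was read at 5.99, 6.28 and 6.19 on the CGP arrays, against 6.47, 6.39 and 6.36 on the CON arrays. All 3 CGP arrays lay below all 3 CON arrays. This was the largest difference of the list, -0.26 (SE 0.072, adjusted p = 0.289 by limma), and both groups lay in the range of the receptor probesets. Ifih1, which encodes the RNA sensor MDA5, was read at 6.63, 6.65 and 6.62 in CGP, against 6.66, 6.81 and 6.82 in CON. The CGP arrays again lay below the CON arrays, narrowly for the closest pair (difference -0.13, SE 0.050, adjusted p = 0.419 by limma).

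The 4 transcription factors did not move together. Irf7, the factor that amplifies interferon production, was read at 6.58, 6.78 and 6.65 in CGP, against 6.87, 6.92 and 6.74 in CON. CGP replicate 2 exceeded CON replicate 3, so the groups overlapped, and the difference was -0.17 (SE 0.064, adjusted p = 0.410 by limma). Irf1, a factor induced by interferon-gamma, was read at 7.63, 7.71 and 7.64 in CGP, against 7.61, 7.51 and 7.60 in CON. All CGP arrays were higher, by a difference of 0.09 (adjusted p = 0.510 by limma), but its second probeset gave -0.01. Stat2 had signals of 8.40, 8.31 and 8.38 in CGP, against 8.28, 8.30 and 8.35 in CON, and its partner Irf9 had signals of 8.23, 8.16 and 8.13 in CGP, against 8.32, 8.25 and 8.21 in CON. The differences were 0.05 for Stat2 and -0.09 for Irf9, in opposite directions and with overlapping groups.

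The antiviral effectors, whose products include proteins that act on viral RNA or on virus release, showed no common direction. Of the 7 tested, 3 were higher and 4 lower in CGP, with a median difference of -0.01. Ifit1, whose product binds viral RNA caps, was read at 7.66, 7.51 and 7.47 in CGP, against 7.58, 7.52 and 7.69 in CON (difference -0.05). Ifit3, of the same family, was read at 8.62, 8.31 and 8.45 in CGP, against 8.60, 8.45 and 8.56 in CON (difference -0.08). The groups overlapped for both genes, and both differences depended on single arrays: that of Ifit1 was -0.0029 without CON replicate 3 and -0.11 without CGP replicate 1, and that of Ifit3 was -0.0037 without CGP replicate 2 and -0.16 without CGP replicate 1. Ifit2 averaged 7.06 ± 0.065 in CGP and 7.03 ± 0.19 in CON (SD, n = 3 each), with the spread of CON set by its replicate 2 at 6.82.

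Rsad2 encodes viperin, an enzyme that makes a chain-terminating nucleotide. Its signals were 6.45, 6.50 and 6.37 in CGP, against 6.23, 6.36 and 6.46 in CON (difference 0.09), with overlapping groups. Oas1a, a synthetase that activates RNase L, was read at 7.03, 7.39 and 7.38 in CGP, against 7.31, 7.07 and 7.36 in CON. A single array of each group stood low, and the difference of 0.02 turned negative when CGP replicate 2, CGP replicate 3 or CON replicate 2 was left out.

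Bst2, the tetherin that holds budding virus at the cell surface, was read at 8.04, 8.22 and 8.31 in CGP, against 8.30, 8.25 and 8.25 in CON. CGP replicate 1 alone lay well below the rest, and the difference of -0.08 was -0.0070 without it. Parp14, an ADP-ribosyltransferase, differed by -0.01. The shared probeset of Gbp2 and Gbp2b, which encode GTPases against intracellular pathogens, was read at 6.71, 6.62 and 6.47 in CGP, against 6.70, 6.75 and 6.74 in CON.

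ISG15 is a ubiquitin-like protein, induced by interferon, that enzymes attach to other proteins. The probeset shared by Isg15 and Gm9706 was read at 5.83, 5.93 and 6.01 in CGP, against 5.90, 5.95 and 5.89 in CON, below the median of the receptor probesets. Usp18 removes ISG15 and restrains the interferon receptor. It was read at 7.14, 7.05 and 6.99 in CGP, against 7.07, 7.21 and 7.21 in CON, and the difference of -0.10 did not pass the test (adjusted p = 0.538 by limma). Herc6, the mouse ligase for ISG15, differed by -0.05. The remaining interferon-induced genes, Ifi35, Rtp4 and Xaf1, had differences of 0.05 for Ifi35, -0.03 for Rtp4 and -0.02 for Xaf1, and only for Ifi35 did all CGP arrays lie above all CON arrays, narrowly (7.48 ± 0.019 in CGP and 7.44 ± 0.044 in CON, SD, n = 3 each).

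**Figure D2:**
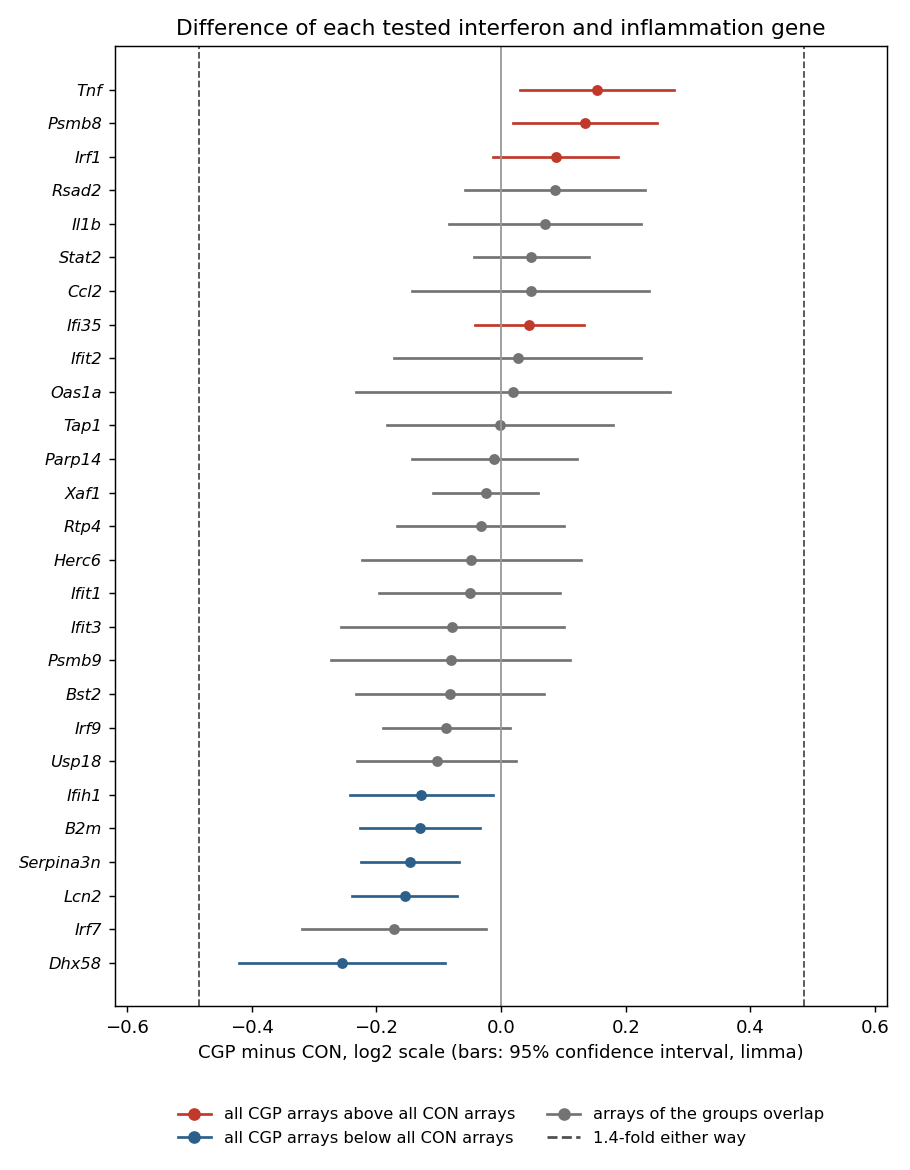
Difference in log2 signal, CGP minus CON, with its 95% confidence interval from limma for each tested interferon and inflammation gene, and dashed lines at 1.4-fold. All 27 intervals lie inside those lines, and none of the genes was called after adjustment.

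Among the 4 antigen presentation genes, the difference was positive only for Psmb8, a subunit of the immunoproteasome read near background. B2m, the light chain of MHC class I molecules, was read at 12.14, 12.06 and 12.14 in CGP, against 12.22, 12.30 and 12.22 in CON. All CGP arrays lay below all CON arrays, with a difference of -0.13 (SE 0.042, adjusted p = 0.345 by limma). Psmb8 was read at 6.47, 6.58 and 6.47 in CGP, against 6.43, 6.30 and 6.39 in CON. Here all CGP arrays lay above the CON arrays (difference 0.13, adjusted p = 0.410 by limma), at a level within the range of the receptor probesets. Psmb9, the partner subunit, averaged 8.22 ± 0.19 in CGP and 8.30 ± 0.032 in CON (SD, n = 3 each), with CGP replicates 2 and 3 at 8.33 and 8.32 and replicate 1 below every other array. Its difference of -0.08 rested on CGP replicate 1 and was 0.03 without that array. Tap1, a part of the peptide transporter, averaged 7.62 in both groups.

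The inflammation genes divided into dim cytokines and acute-phase genes read above background. Tnf, a cytokine released early in inflammation, was read at 6.64, 6.80 and 6.84 in CGP, against 6.62, 6.59 and 6.61 in CON. All CGP arrays lay above the CON arrays, though CGP replicate 1 did so narrowly, and the difference of 0.15 (SE 0.054) did not pass the test (adjusted p = 0.385 by limma). Il1b, another early cytokine, was read at 6.15, 6.34 and 6.21 in CGP, against 6.24, 6.05 and 6.20 in CON. Ccl2, a chemokine that draws monocytes, was read at 7.29, 7.22 and 7.07 in CGP, against 7.32, 7.05 and 7.07 in CON. The groups overlapped for Il1b (difference 0.07) and for Ccl2 (difference 0.05), and these cytokines were all read within the range of the receptor probesets.

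Serpina3n, a secreted inhibitor of serine proteases, was read at 11.07, 11.03 and 11.06 in CGP, against 11.20, 11.18 and 11.21 in CON. The arrays of a group lay close together, and all CGP arrays were lower. The difference was -0.15 (SE 0.034, 95% confidence interval -0.22 to -0.07, adjusted p = 0.206 by limma). Lcn2, a secreted protein that binds bacterial iron carriers, was read at 8.11, 8.15 and 8.14 in CGP, against 8.31, 8.31 and 8.25 in CON. It too was lower on every CGP array, with a difference of -0.15 (SE 0.036, 95% confidence interval -0.24 to -0.07, adjusted p = 0.213 by limma). Neither passed the test in this fit. When the variance was allowed to follow the signal level, with protection against outlying genes, Serpina3n (adjusted p = 0.00973) and B2m (adjusted p = 0.0356) passed it, with the same differences.

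**Figure D3:**
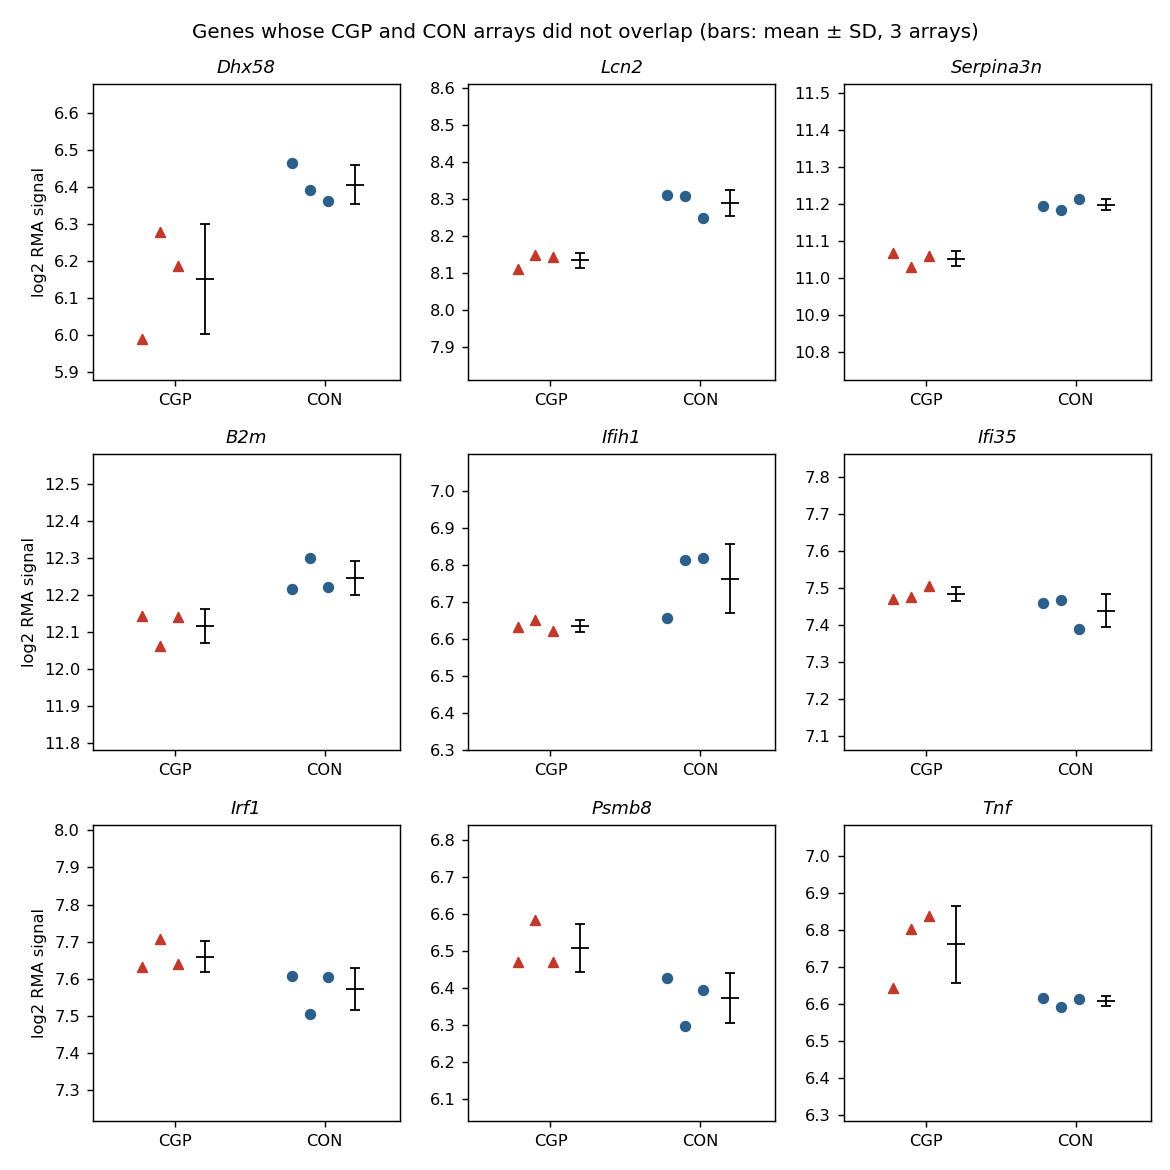
Log2 signal per array for the interferon and inflammation genes whose CGP and CON arrays did not overlap, with the mean and SD of each group of 3 arrays. Tnf, Psmb8, Irf1 and Ifi35 were higher in CGP, and Dhx58, Ifih1, B2m, Lcn2 and Serpina3n were lower.

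Counted over the list, differences lay on both sides, with more of them negative. The difference was positive for 10 genes and negative for 17 (63.0%, against 52.1% of all tested probesets). The median was -0.03, beside -0.00311 over all tested probesets. The groups did not overlap for 9 genes. In 4 of them (14.8%) all CGP arrays lay above all CON arrays, where 7.59% of all tested probesets did so, and in 5 (18.5%) they lay below, where 9.95% did so. An unadjusted limma p under 0.05 was reached by 2 genes higher in CGP (7.41%, against 5.25% of all tested probesets) and by 6 lower in CGP (22.2%, against 5.83%). The 6 were Dhx58, Ifih1, Irf7, B2m, Lcn2 and Serpina3n, and none of them passed after adjustment. The list was chosen with earlier results of these data known, so these shares describe it and are not a test.

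The brighter genes leaned to lower signals in CGP. Of the 11 genes above the receptors' 95th percentile, 9 were lower in CGP, with a median difference of -0.08. Of all tested probesets above that level, 56.7% were lower. Several of the 9 rested on single arrays. Without CGP replicate 1 the difference was 0.03 for Psmb9, 0.07 for Tap1 and -0.0070 for Bst2. Ifit1 shrank to -0.0029 without CON replicate 3, and Ifit3 to -0.0037 without CGP replicate 2. Of the 9, only Psmb9 and Tap1 turned sign. The 16 dimmer genes divided into 8 higher and 8 lower, with a median of 0.00424. Every 95% confidence interval lay within 1.4-fold, a log2 difference of 0.49, and the widest bounds were -0.42 and 0.28. These intervals are for 1 gene each and describe the signal between these arrays.

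The wider interferon pathway gave no call either. None of the 15 tested genes of interferon ligands, receptors and JAK-STAT signalling was called (median difference -0.01). The gene with the largest difference was Ifngr1, a chain of the interferon-gamma receptor (9.45, 9.40 and 9.30 in CGP, against 9.51, 9.56 and 9.47 in CON, difference -0.13, adjusted p = 0.412 by limma). None of 15 nucleic acid sensing genes was called either (median -0.03), with the largest difference in Tlr7, a sensor of single-stranded RNA (difference -0.21, adjusted p = 0.399 by limma). Of 33 other interferon-stimulated genes, 9 were higher and 24 lower in CGP, with a median of -0.04 and no call. Ifitm3, which blocks virus entry at the membrane, was read at 10.12, 10.06 and 10.04 in CGP, against 10.29, 10.26 and 10.27 in CON. Its groups stood apart, and its difference of -0.20 (SE 0.037) did not pass the test (adjusted p = 0.105 by limma).

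The NF-kB and inflammatory mediator genes were balanced, with 17 higher and 15 lower of 32 and no call. Ccl3, a chemokine released by microglia and macrophages, had the largest difference. It was read at 8.61, 8.43 and 8.38 in CGP, against 8.13, 8.12 and 8.02 in CON. All CGP arrays were higher, by a difference of 0.38 (SE 0.063), and the gene did not pass the test (adjusted p = 0.0663 by limma). Under the trended and robust variance Ccl3 (adjusted p = 0.00233) and Ifitm3 (adjusted p = 0.00306) passed. Among 12 further MHC class I genes 9 were lower, with the largest difference in Erap1, a peptide-trimming protease (-0.15, adjusted p = 0.411 by limma). Among 15 complement genes 9 were lower, with the largest difference in Serping1, the inhibitor of C1 (8.93 ± 0.068 in CGP and 9.20 ± 0.067 in CON, SD, n = 3 each, difference -0.27, adjusted p = 0.111 by limma).

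Reactive astrocyte genes, the setting in which Lcn2 and Serpina3n are best known, held 1 call. Timp1, an inhibitor of matrix metalloproteinases, was read at 7.07, 7.15 and 7.13 in CGP, against 7.57, 7.61 and 7.63 in CON. It fell by 0.49 on the log2 scale (SE 0.039, adjusted p = 0.00524 by limma) and stayed called with any 1 array left out (highest adjusted p = 0.0488). Of the 22 genes tested, 17 were lower in CGP, 11 of them with all CGP arrays below all CON arrays, and the median difference was -0.09. Of all tested probesets, 52.1% were lower and 9.95% had all CGP arrays below all CON arrays. Which cells carried the differences of this list was not tested. Gfap, the astrocyte filament protein, was read at 9.83, 9.85 and 9.79 in CGP, against 9.94, 9.98 and 9.92 in CON, and its difference of -0.12 did not pass the test (adjusted p = 0.303 by limma).

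**Figure D4:**
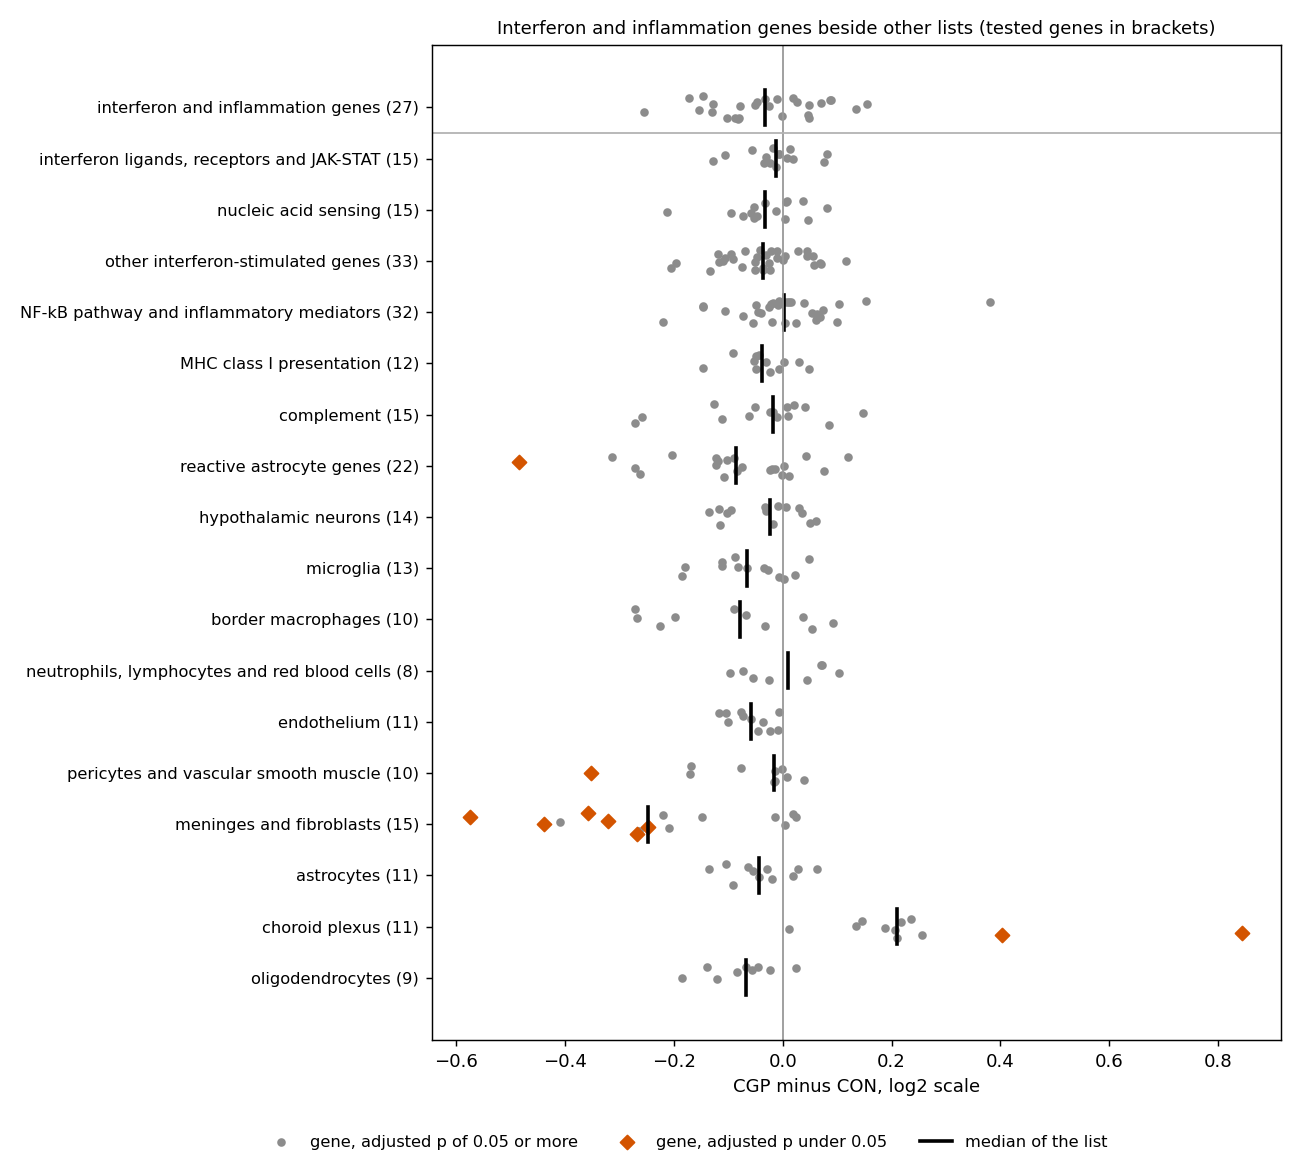
Difference in log2 signal, CGP minus CON, of each tested gene in the interferon and inflammation list, in the pathway lists and in the cell type lists, with the median of each list marked. The interferon and inflammation genes lie around 0 with a median of -0.03, the meningeal and fibroblast genes have a median of -0.25 and the choroid plexus genes one of 0.21.

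Among the cell type lists, calls came only in those of meninges and fibroblasts, choroid plexus, and pericytes and smooth muscle. The lists were chosen with earlier results of these data known, so their counts describe the lists and are not a test. Hypothalamic neuron markers were present, with a median signal of 9.88 to 9.95 per array and the largest difference in Nkx2-1, a developmental transcription factor (-0.14, adjusted p = 0.422 by limma). Of 15 meningeal and fibroblast genes, all tested, 12 were lower and 6 were called, among them Prg4, a secreted lubricating proteoglycan (difference -0.57, adjusted p = 0.00720 by limma), with Ogn, Fmod, Slc6a20a, Aldh1a2 and Igf2. Their summed level was 12.84 to 12.90 in CGP, against 13.12 to 13.15 in CON. Of the 11 choroid plexus genes all were higher and 2 were called, Ttr (difference 0.84) and Slc4a5 (difference 0.40), and their summed level was 13.12 to 13.15 in CGP, against 12.47 to 12.55 in CON. Ttr alone made up 72.6% to 73.6% of that sum in CGP, against 62.4% to 64.0% in CON, and without it the level was 11.19 to 11.26 in CGP, against 11.06 to 11.07 in CON. With 1 array left out, Ttr stayed called in each of the 6 fits and Prg4 in 4 (not without CON replicate 1 or CON replicate 2, adjusted p up to 0.0535 by limma). Ogn was called only without CGP replicate 1, and the other 5 of these calls and the call of Acta2, a smooth muscle gene, in none of the 6, with adjusted p between 0.0590 and 0.226 by limma. The summed level of the 27 interferon and inflammation genes was 13.39 to 13.42 in CGP, against 13.50 to 13.52 in CON. B2m and Serpina3n made up 59.2% to 60.8% of it in CGP, against 61.2% to 62.8% in CON, and without these 2 genes the sums overlapped (12.07 to 12.10 in CGP, against 12.09 to 12.14 in CON). The part of meninges and choroid plexus in the lower signal of Serpina3n, Lcn2 and B2m was not tested, and in bulk tissue fewer cells of a type and less RNA per cell cannot be told apart.

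The immune, vascular and glial marker lists had medians closer to 0. Microglia markers gave no call, with 10 of 13 lower, a median of -0.07 and a summed level of 12.46 to 12.51 in CGP, against 12.48 to 12.57 in CON. Border macrophage markers gave no call, with 7 of 10 lower and a summed level of 10.33 to 10.47 in CGP, against 10.51 to 10.55 in CON. The largest differences were in Aif1 of the microglia (-0.19, adjusted p = 0.238 by limma) and in H2-Ab1, an MHC class II chain, of the border macrophages (-0.27, adjusted p = 0.302 by limma). Markers of neutrophils, lymphocytes and red blood cells were balanced, with 4 of 8 higher and the largest difference in Cd3e of T cells (0.10, adjusted p = 0.597 by limma), and 1 measured marker, Cd79a, lay below the signal filter of 6. Their summed level was 9.88 to 9.96 in CGP, against 9.91 to 9.98 in CON.

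All 11 endothelial markers were lower without a call (summed level 12.98 to 13.06 in CGP, against 13.06 to 13.09 in CON), with the largest difference in Abcb1a, a drug efflux pump (-0.12, adjusted p = 0.426 by limma). Of 10 pericyte and smooth muscle markers 1 was called, Acta2, the smooth muscle actin, which fell by 0.35 on the log2 scale (adjusted p = 0.0249 by limma), and their summed level was 12.23 to 12.29 in CGP, against 12.33 to 12.39 in CON. Astrocyte markers gave no call, with 8 of 11 lower and a summed level of 14.87 to 14.95 in CGP, against 14.93 to 14.96 in CON, and the largest difference was in S100b, a calcium-binding protein (-0.14, adjusted p = 0.271 by limma). Oligodendrocyte markers gave no call, with 8 of 9 lower and a summed level of 14.47 to 14.50 in CGP, against 14.54 to 14.58 in CON, and the largest difference was in Ugt8a, an enzyme of myelin lipid synthesis (-0.19, adjusted p = 0.227 by limma). The part of these cells in the differences of the interferon and inflammation genes was not tested.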

How the data were processed

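The deposited values were log2 signals that the authors made from the array scans by RMA in Partek (background correction, quantile normalization and median polish). The labels of these arrays give no software version. Probesets annotated to 1 gene with a mean of at least 6 over the 6 arrays were kept, which left 18239 of 28471. CGP and CON arrays entered a fit in limma 3.58.1 (R 4.3.3, lmFit and eBayes, two-sided, no covariate) with Benjamini-Hochberg adjustment over all tested probesets and a threshold of 0.05. The annotation can be old. A gene with several probesets was read on the brightest. The summed level of a list is the log2 of its summed linear signals. All 33 genes of the list were named, and of each other list the genes called or, where none was, the gene with the largest difference; other genes were named after their values were seen. The genes and lists were chosen with earlier results of these data known. The fit was tested on simulated data. Array medians were 8.19 to 8.21. The number of arrays limits the precision.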

Additional observations from a re-analysis of the deposited data

How the results depend on the processing

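None of the 27 genes was called in any alternative except with trended and robust variance (2 lower, Serpina3n and B2m). Probesets called over the whole array, 28 higher and 23 lower in CGP, were more sensitive: 44 higher and 37 lower at a mean signal of at least 7, 4 and 2 with ordinary variance, 113 and 136 with trended and robust variance, 3 and 2 over all probesets of the table, and 3 and 6 when at least 1.4-fold was also asked. Array weights gave 39 higher and 38 lower. Leaving out 1 array at a time gave 2 to 5 higher and 3 to 8 lower. Same-numbered arrays did not pair (correlations 0.078, -0.18 and 0.11 of their deviations, best match the own number for 1 of 3), and a fit with the replicate block called 2 higher and 4 lower. Of 396 refitted values of the 27 genes, 376 kept direction and side of the threshold and 18 turned sign, in 8 genes. In the main fit the differences of these 8 genes ran from -0.08 (Psmb9) to 0.05 (Ccl2). With 1 array left out, the difference lay between -0.077 and 0.10 for Ifit2, -0.058 and 0.035 for Parp14, -0.14 and 0.026 for Psmb9, -0.046 and 0.072 for Tap1, -0.00063 and 0.13 for Ccl2, -0.068 and 0.14 for Oas1a, -0.11 and 0.016 for Herc6, and -0.089 and 0.024 for Rtp4. Without turning sign it also moved widely for Bst2 (-0.14 to -0.0070), Ifit1 (-0.11 to -0.0029), Ifit3 (-0.16 to -0.0037), Il1b (0.012 to 0.11), Rsad2 (0.028 to 0.14) and Xaf1 (-0.040 to -0.0028). Array weights gave -0.025 for Ifit2, and centring the arrays on the median gave 0.0012 for Parp14 and 0.011 for Tap1. The cause was not tested. The lowest adjusted p with 1 array left out was 0.126 (limma, Tnf without CGP replicate 1). Signal near background limits what can be read for the 16 dimmer genes.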
